A study of Mus musculus with 28 samples.

Results

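The collagen genes are the 34 genes of the array whose RefSeq symbol has the form of a collagen chain (Col, a type number, a, a chain number), out of 30632 genes with a usable probe. RefSeq lists 44 such symbols in the mouse, and the 10 without a matched probe, among them Col6a2, Col6a3, Col12a1 and Col17a1, were not analysed here. Each gene is represented by its brightest probe, chosen over all arrays and not by any comparison. By class, 11 of the 34 are fibrillar, 9 belong to or anchor the basement membrane, 6 are fibril-associated, 3 form networks, 2 belong to the beaded filament type, 2 span the membrane, and Col26a1 fits none of these.

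Expression was measured in mouse germ cells, cultures and testis on 28 single-colour arrays, in 14 groups of 2. Primordial germ cells (PGCs) came from female and male embryos at E10.5, E13.5 and E17.5, all of the strain labelled BDF1 x TgN(deGFP)18Imeg. Oogonia (female) and spermatogonia (male) carried the strain label BDF1 x Tg(Mvh-Venus)1Rbrc. Female and male samples titled EG had a cross with Rb(X.2)2Ad as their strain and PGCs of 12.5 dpc as their source. ES samples were of the female line no5, of the inbred strain used in that cross, and the male line TMA5, whose strain label is an F1 hybrid of TgN (deGFP)20Imeg and MSM/Ms. GS samples were male DBA/2, and adult testis was from C57BL/6J. The labels name no age for oogonia and spermatogonia, no cell sort and no feeder layer, nor do they tell if the 2 arrays in a group stem from different animals or cultures. The p-values below thus rest on the spread of those arrays alone, which can be purely technical. All 6 germ cell markers on the array were well above background on both arrays of 13 groups, and 5 of 6 were in testis.

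Collagens are secreted proteins of 3 chains wound into a triple helix. Fibrillar collagens, chiefly types I, III and V, are made in bulk by fibroblasts and other stromal cells and assemble into the fibres of connective tissue. Basement membrane collagens, chiefly type IV with the related types XV and XVIII, form the thin sheet under epithelia and around seminiferous cords, and are made by epithelial, endothelial and many other cells. In the fetal gonad germ cells lie next to Sertoli or pregranulosa cells and within a stroma, and a gonad or a culture therefore holds several possible makers of collagen.

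The 250 bases before the annotated RNA start are shown for Col1a2, Col3a1 and Col8a1, each of which differed by at least 4.17 log2 units between the arrays of a group, and for Col18a1, which was well above background on every array. They are from RefSeq on build GRCm38.p6, each on its gene's own strand. The windows are chr6:4505368-4505617 (+) for Col1a2, chr1:45311288-45311537 (+) for Col3a1, chr16:57754738-57754987 (-) for Col8a1 and chr10:77166531-77166780 (-) for Col18a1. Capitals mark 3 motifs searched on both strands. These are the CCAAT box, the GC box with the letters GGGCGG, and the TATA box with the letters TATAAA.
Col1a2: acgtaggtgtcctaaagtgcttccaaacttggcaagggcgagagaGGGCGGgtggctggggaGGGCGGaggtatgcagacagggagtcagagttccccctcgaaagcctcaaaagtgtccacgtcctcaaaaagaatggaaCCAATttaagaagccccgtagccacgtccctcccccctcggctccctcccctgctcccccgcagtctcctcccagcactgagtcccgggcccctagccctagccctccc
Col3a1: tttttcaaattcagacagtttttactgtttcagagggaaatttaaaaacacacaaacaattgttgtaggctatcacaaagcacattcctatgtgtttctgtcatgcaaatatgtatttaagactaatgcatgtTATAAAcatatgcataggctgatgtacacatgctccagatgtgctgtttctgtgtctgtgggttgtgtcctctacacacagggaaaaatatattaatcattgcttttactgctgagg
Col8a1: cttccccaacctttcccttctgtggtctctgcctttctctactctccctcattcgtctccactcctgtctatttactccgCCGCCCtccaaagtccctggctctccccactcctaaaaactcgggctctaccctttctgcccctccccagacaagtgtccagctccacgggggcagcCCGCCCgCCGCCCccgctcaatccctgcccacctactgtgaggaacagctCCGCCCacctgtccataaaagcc
Col18a1: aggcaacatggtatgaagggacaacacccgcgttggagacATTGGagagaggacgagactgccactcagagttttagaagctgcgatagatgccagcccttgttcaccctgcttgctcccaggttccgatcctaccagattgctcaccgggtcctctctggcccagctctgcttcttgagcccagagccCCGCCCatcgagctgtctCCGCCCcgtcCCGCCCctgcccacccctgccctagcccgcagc
The GC box, on either strand, occurred 4 times in the Col8a1 window, 3 times in the Col18a1 window, 2 times in the Col1a2 window and 0 times in the Col3a1 window. The TATA box occurred only in the Col3a1 window among these 4, where its first base lies 117 bases before the start, and the CCAAT box occurred 1 time each in the Col1a2 and Col18a1 windows. Of 32851 windows of this length in the table, 33.8% hold the CCAAT box, 32.7% the GC box and 12.4% the TATA box. The table had windows for 27 of the 34 collagen genes, and of their 29 windows 12 hold the CCAAT box, 17 the GC box and 4 the TATA box. The G and C content was 35.2% in the Col3a1 window, against 62% in those of Col1a2 and Col18a1 and 60.8% in that of Col8a1.

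A level below is the log2 processed signal of a probe minus the 75th percentile of its array over the 7227 probes with clear signal on every array, so 0 is a bright signal and 1 unit is a factor of 2. A value followed by (dim) was not well above background and is not a measured level. Its upper limit is the lowest signal well above background on that array, or the value itself where higher. That lowest signal ran from -10.7 on the second GS array to -3.58 on the first E10.5 male array. Levels are compared across samples within a probe, never between genes. Of the 34 genes, 4 were well above background on all 28 arrays (Col1a1, Col5a1, Col6a1 and Col18a1), 18 were so on both arrays of at least 7 groups, 15 in 1 to 6 groups, and Col4a4 in none. Among groups, the count of collagen genes well above background on both arrays was lowest in E10.5 PGCs, with 5 of 34 in each sex, and highest in testis with 32 and in GS with 29. E13.5 PGCs had 12 in females and 7 in males, and E17.5 PGCs had 11 in females and 22 in males. The counts were 18 in oogonia, 19 in spermatogonia, 16 in female and 19 in male EG, 23 in ES no5 and 15 in ES TMA5. These counts follow the background of each array as well as expression, since on 16 of the 28 arrays fewer than 50% of all probes reached that level. Among the groups in which a gene was well above background on both arrays, GS had the highest mean for 15 genes, including Col1a1, Col1a2, Col3a1, Col5a1, Col4a1, Col4a2 and Col18a1. Testis was highest for 7 genes and male E17.5 PGCs for 6.

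**Figure D1:**
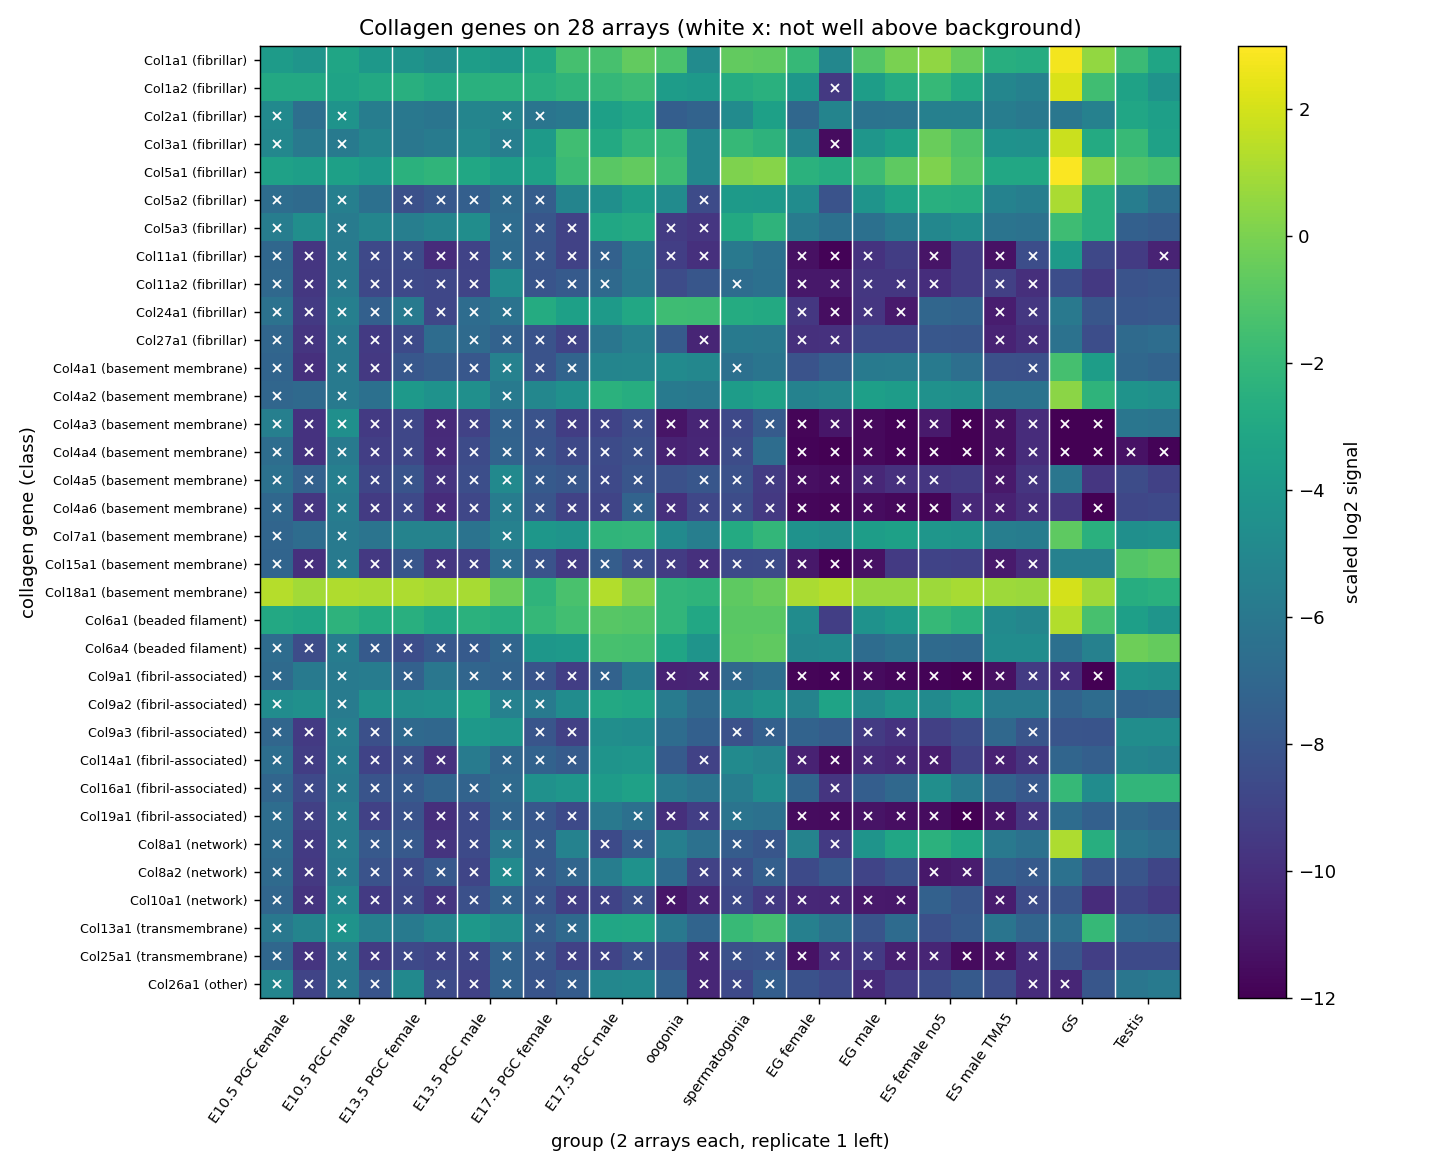
Scaled log2 signal (colour) of 34 collagen genes, ordered by class down the side, on 28 arrays, ordered by group along the bottom with replicate 1 on the left; a white x marks a value not well above background. Col18a1 is bright in most groups, and Col1a1, Col1a2, Col3a1, Col5a1 and Col5a2 are brightest on the first GS array.

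Fibrillar chains. Col1a1 encodes the main chain of type I collagen, the bulk protein of connective tissue. Col1a1 read -3.74 and -4.17 in E10.5 females, -3.20 and -3.98 in E10.5 males, -4.32 and -4.66 in E13.5 females, -3.64 and -4.01 in E13.5 males, -3.01 and -1.42 in E17.5 females and -1.37 and -0.62 in E17.5 males. Oogonia had Col1a1 values of -1.22 and -4.76, and spermatogonia -0.58 and -0.71. For Col1a1 the cultures gave -1.96 and -5.03 in female EG, -0.998 and -0.0037 in male EG, 0.50 and -0.46 in ES no5 and -2.62 and -2.69 in ES TMA5. Its group means were lowest in E10.5 and E13.5 PGCs, where no array rose above -3.20, and the 2 arrays of oogonia lay 3.54 units apart and those of female EG 3.07. GS had Col1a1 at 2.75 and 0.55 and testis at -1.79 and -3.19. The first GS array was the highest of all 28.

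Col1a2 encodes the other chain of type I collagen. Col1a2 read -2.96 and -2.96 in E10.5 females, -3.27 and -2.96 in E10.5 males, -2.55 and -2.81 in E13.5 females, -2.46 and -2.39 in E13.5 males, -2.56 and -2.21 in E17.5 females and -2.001 and -1.70 in E17.5 males. Oogonia had Col1a2 values of -3.70 and -3.96, and spermatogonia -2.69 and -2.47. It varied little among the PGCs, whose 12 arrays lay between -3.27 and -1.70. For Col1a2 the cultures gave -4.07 and -9.49 (dim) in female EG, -3.65 and -2.73 in male EG, -1.97 and -2.83 in ES no5 and -5.09 and -5.39 in ES TMA5. GS had Col1a2 at 2.17 and -1.62 and testis at -3.36 and -4.30. The second female EG array was the only dim value, and the first GS array was again the highest. A second Col1a2 probe was well above background on 16 arrays and its correlation with this probe over 28 arrays was 0.54, so the flat PGC level rests on this probe.

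Col3a1 encodes type III collagen, found with type I in loose stroma and vessel walls. Col3a1 read -5.08 (dim) and -5.93 in E10.5 females, -5.85 (dim) and -5.19 in E10.5 males, -6.05 and -5.76 in E13.5 females, -4.95 and -5.60 (dim) in E13.5 males, -3.81 and -1.58 in E17.5 females and -2.87 and -2.07 in E17.5 males. Oogonia had Col3a1 values of -1.99 and -5.03, and spermatogonia -1.94 and -2.29. For Col3a1 the cultures gave -5.22 and -11.50 (dim) in female EG, -4.11 and -3.48 in male EG, -0.45 and -1.19 in ES no5 and -4.37 and -4.41 in ES TMA5. Among the cultures, ES no5 was above ES TMA5 and both EG groups, and the second female EG array was dim at -11.50. GS had Col3a1 at 1.82 and -2.84 and testis at -1.90 and -3.39. The GS arrays differed by 4.66 units.

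Col5a1 and Col5a2 encode chains of type V collagen, which starts the assembly of type I fibrils. Col5a1 read -3.43 and -3.59 in E10.5 females, -3.46 and -3.92 in E10.5 males, -2.44 and -2.21 in E13.5 females, -3.08 and -3.65 in E13.5 males, -3.42 and -1.77 in E17.5 females and -0.81 and -0.62 in E17.5 males. Oogonia had Col5a1 values of -1.67 and -5.07, and spermatogonia 0.10 and 0.28. For Col5a1 the cultures gave -2.42 and -2.69 in female EG, -1.72 and -0.74 in male EG, 0.09 and -0.95 in ES no5 and -2.98 and -3.03 in ES TMA5. Col5a1 was high in male E17.5 PGCs and spermatogonia, without overlap with E10.5 and E13.5 PGCs. GS had Col5a1 at 2.89 and 0.20 and testis at -1.12 and -1.44. Col5a2 read -6.65 (dim) and -6.83 in E10.5 females, -5.55 (dim) and -6.46 in E10.5 males, -8.36 (dim) and -7.87 (dim) in E13.5 females, -7.45 (dim) and -6.81 (dim) in E13.5 males, -7.60 (dim) and -5.23 in E17.5 females and -4.56 and -3.64 in E17.5 males. Oogonia had Col5a2 values of -4.79 and -8.57 (dim), and spermatogonia -3.85 and -3.88. Col5a2 was dim on all 4 arrays of E13.5 PGCs, and on the second array of oogonia. For Col5a2 the cultures gave -4.73 and -8.14 in female EG, -4.24 and -3.30 in male EG, -2.56 and -2.68 in ES no5 and -5.33 and -5.58 in ES TMA5. GS had Col5a2 at 1.09 and -2.56 and testis at -5.65 and -6.57. The genome order of RefSeq places Col5a2 next to Col3a1 on chromosome 1, and their group means correlated at 0.74 over the 14 groups, while those of Col1a1 and Col5a2, on different chromosomes, correlated at 0.97.

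Col5a3, a further type V chain, had another pattern. Col5a3 read -5.61 (dim) and -4.59 in E10.5 females, -5.75 (dim) and -5.20 in E10.5 males, -5.57 and -5.26 in E13.5 females, -4.64 and -6.68 (dim) in E13.5 males, -8.00 (dim) and -9.04 (dim) in E17.5 females and -3.07 and -2.81 in E17.5 males. Oogonia had Col5a3 values of -9.39 (dim) and -9.62 (dim), and spermatogonia -2.90 and -2.27. For Col5a3 the cultures gave -5.77 and -6.48 in female EG, -6.49 and -5.77 in male EG, -5.05 and -4.67 in ES no5 and -6.22 and -6.35 in ES TMA5. Col5a3 was dim in female E17.5 PGCs and oogonia and high in male E17.5 PGCs and spermatogonia, without overlap. GS had Col5a3 at -1.67 and -2.54 and testis at -7.38 and -7.64. A second Col5a3 probe was well above background on only 4 arrays.

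Col2a1 encodes the main collagen of cartilage. Col2a1 read -4.88 (dim) and -6.54 in E10.5 females, -4.30 (dim) and -5.63 in E10.5 males, -5.98 and -6.16 in E13.5 females, -5.17 and -5.29 (dim) in E13.5 males, -6.16 (dim) and -5.98 in E17.5 females and -3.45 and -3.02 in E17.5 males. Oogonia had Col2a1 values of -7.53 and -7.23, spermatogonia -4.79 and -3.46, GS -6.07 and -5.40 and testis -3.10 and -3.53. For Col2a1 the cultures gave -6.98 and -5.21 in female EG, -6.29 and -6.24 in male EG, -5.48 and -5.48 in ES no5 and -5.63 and -5.93 in ES TMA5. Its highest values were in testis, male E17.5 PGCs and spermatogonia. Col24a1, a minor fibrillar chain, was dim on all 8 arrays of E10.5 and E13.5 PGCs. Col24a1 read -6.32 (dim) and -9.42 (dim) in E10.5 females, -5.50 (dim) and -7.40 (dim) in E10.5 males, -5.86 (dim) and -8.81 (dim) in E13.5 females, -6.68 (dim) and -6.28 (dim) in E13.5 males, -2.76 and -3.49 in E17.5 females and -3.82 and -2.98 in E17.5 males. Oogonia had Col24a1 values of -1.68 and -1.72, spermatogonia -2.80 and -2.89, GS -5.95 and -7.97 and testis -7.94 and -7.79. For Col24a1 the cultures gave -9.59 (dim) and -11.47 (dim) in female EG, -9.66 (dim) and -10.89 (dim) in male EG, -7.03 and -7.25 in ES no5 and -10.79 (dim) and -9.60 (dim) in ES TMA5. It was highest in oogonia, lay at or above -3.82 in E17.5 PGCs of both sexes and in spermatogonia, and at or below -5.95 on every array of the cultures and testis. The other fibrillar chains, Col11a1, Col11a2 and Col27a1, were well above background on both arrays of 2, 3 and 6 groups.

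**Figure D2:**
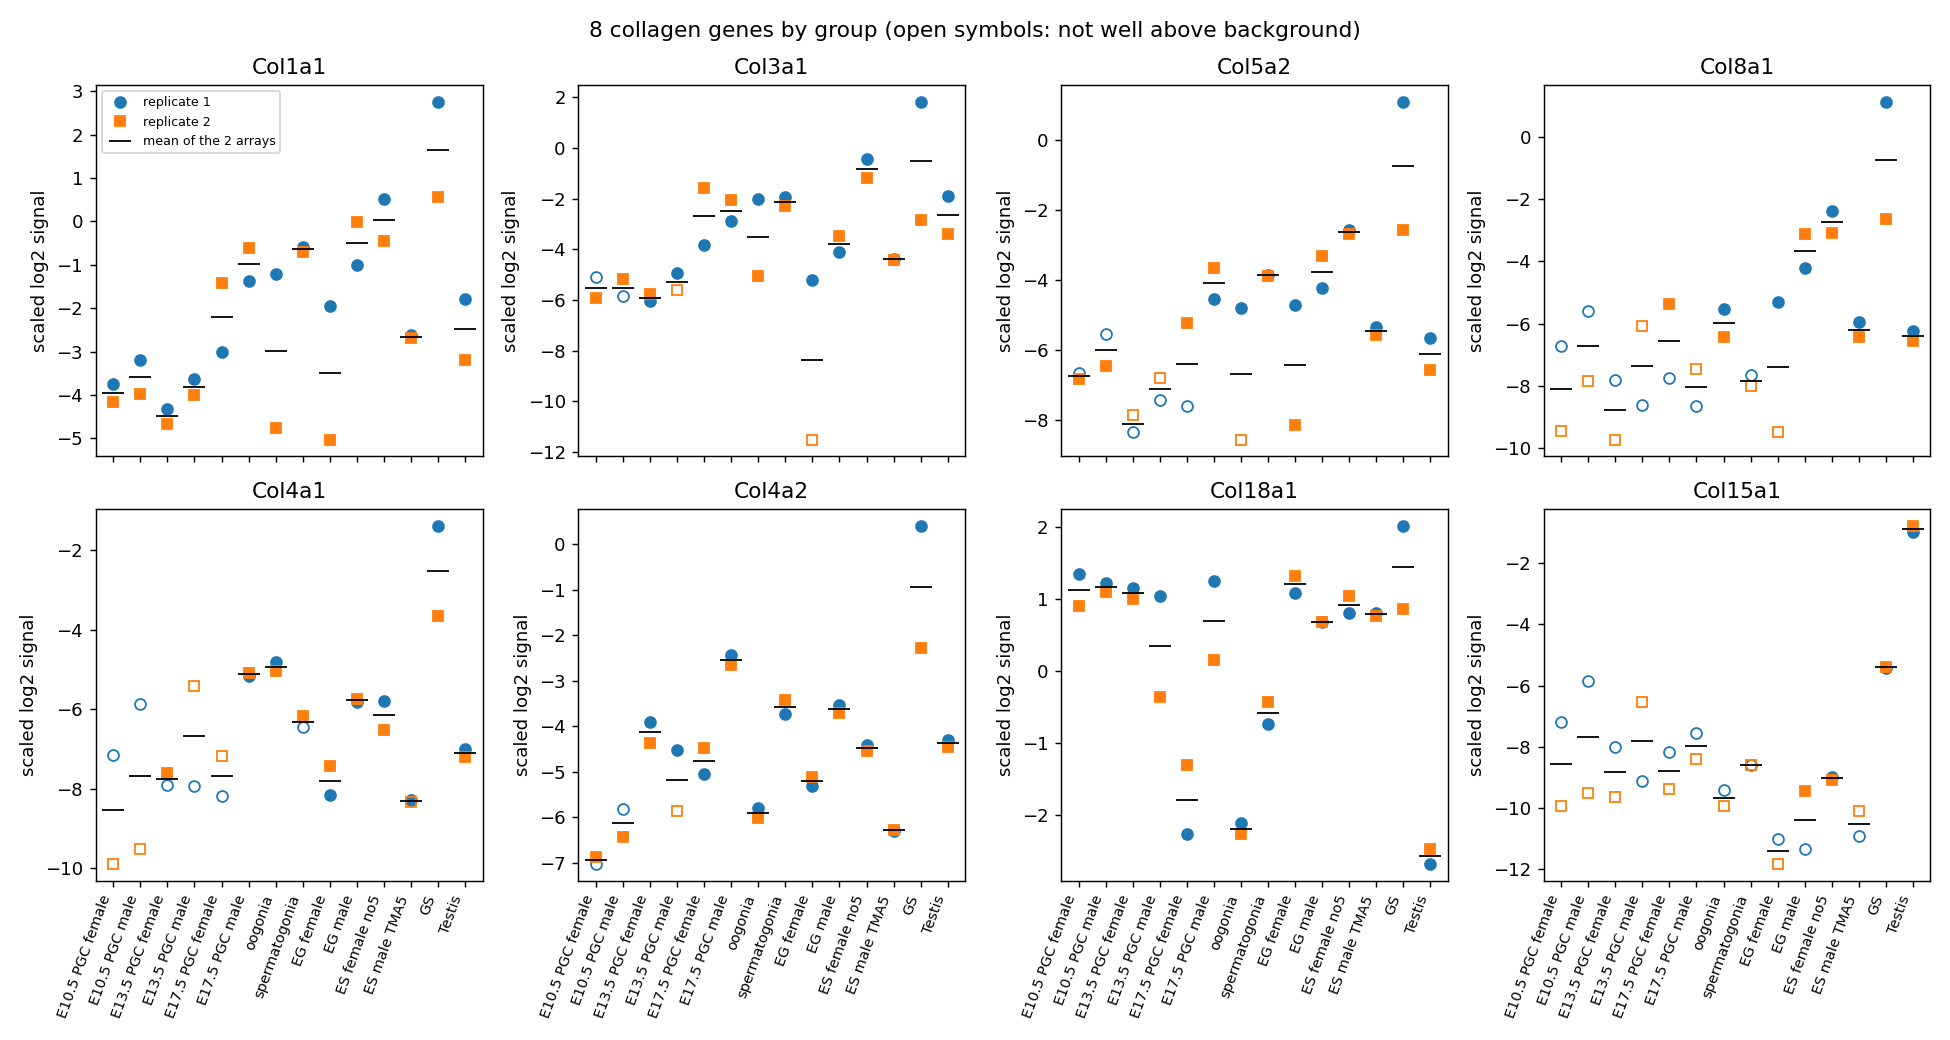
Scaled log2 signal of 8 collagen genes (1 panel each, vertical axis) in the 14 groups (horizontal axis); circles are replicate 1, squares replicate 2, bars their mean, and open symbols values not well above background. Oogonia, female EG and GS show widely separated arrays for Col1a1 and Col5a2. The 2 Col18a1 arrays of oogonia and of female EG lie within 0.23 of each other, but in GS the first array is the higher for Col18a1 too. The widest separation of Col18a1 is 1.40, in E13.5 males. Col15a1 is high only in testis.

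These differences between arrays of the same group ran with markers of stroma. The stromal list holds 9 genes on the array, among them Dcn, Lum, Postn, Thy1 and Pdgfrb, and no collagen; its summed signal is the log2 of the summed linear values. Between replicates 1 and 2 it differed by 3.04 in female EG, 2.84 in GS and 2.74 in oogonia, and by 1.04 or less in size in each of the other 11 groups. In female EG, Dcn, a small proteoglycan of stroma, read -3.57 and -11.53 (dim), and Postn, a stromal matrix protein, read -4.43 and -11.51 (dim). The brightest member on the first female EG array was S100a4, with -0.16 and -6.11. Not all members fell there: Mmp2 read -3.27 and -3.43, and Twist1 was higher on the second array, with -6.86 and -5.44. In GS the values of Dcn were 2.72 and -2.81, and those of Lum, another proteoglycan of stroma, -2.51 and -10.09. The same pairs of arrays separated several fibrillar collagens in the same direction, except that the arrays differed by only 0.27 for Col5a1 in female EG and 0.26 for Col1a2 in oogonia. Col3a1 differed by 6.28 in female EG, 4.66 in GS and 3.04 in oogonia, and Col5a2 by 3.41, 3.65 and 3.77. Over the 14 groups the replicate difference of the stromal list correlated at 0.92 with that of Col1a1, 0.91 with Col3a1, 0.97 with Col5a2, 0.77 with Col5a1 and 0.83 with Col6a1. Without female EG and GS, the groups farthest from the median, the values over 12 groups were 0.91, 0.81, 0.95, 0.91 and 0.75. For Col1a2 it was 0.76 and then 0.29, so that relation rests on female EG and GS. Among basement membrane chains it was 0.17 and then 0.09 for Col18a1, 0.37 and 0.13 for Col4a2, and 0.65 and 0.48 for Col7a1. Other fibrillar chains were low as well, with -0.31 and 0.21 for Col2a1, 0.10 and -0.25 for Col5a3 and 0.34 and 0.13 for Col24a1. The relation thus did not divide by class. These correlations describe points that share the array, its scaling and its RNA. Several genes, among them Col3a1, Col5a2, Col4a2, Col7a1, Col5a3 and Col24a1, have dim values among them. In GS the median replicate difference was 2.20 over 11 fibrillar chains and 2.00 over 6 basement membrane chains. In these bulk samples more cells of a type and more RNA per cell cannot be told apart, and the part of stromal cells in these values was not tested.

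**Figure D3:**
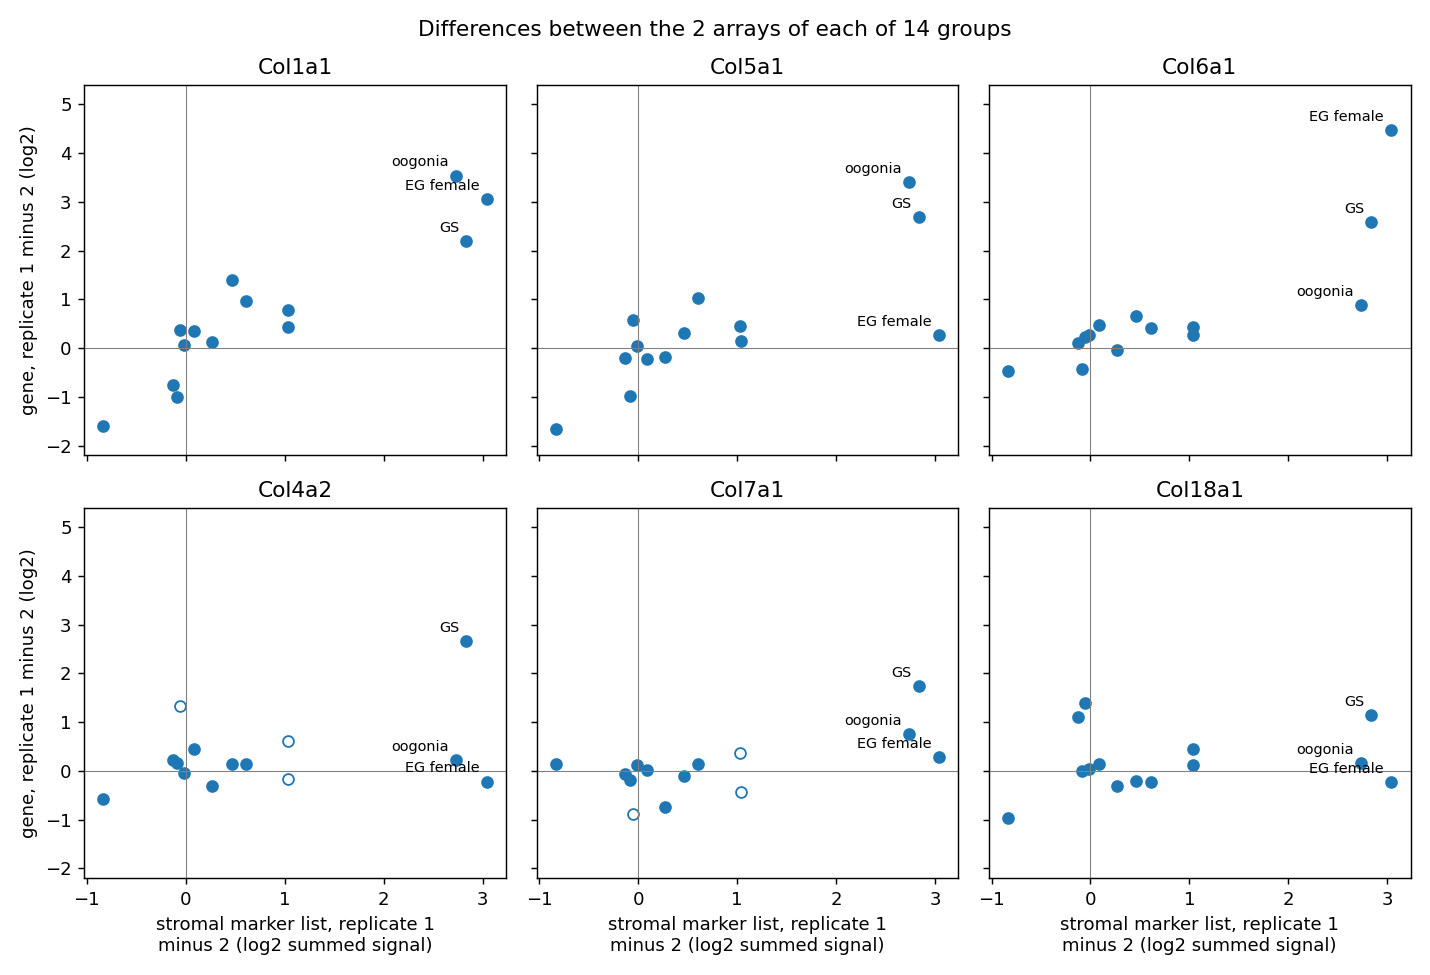
Replicate 1 minus replicate 2 of 6 collagen genes (1 panel each, vertical axis, log2) against the same difference of the summed stromal marker list (horizontal axis, log2), with 1 point per group and open points where an array was not well above background. Col1a1 and Col6a1 rise with the stromal list, while Col18a1 stays within 0.23 of 0 in female EG and oogonia but lies above 0 in GS.

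Basement membrane chains. Col4a1 and Col4a2 encode the type IV chains found in nearly every basement membrane, and RefSeq places them side by side on chromosome 8, overlapping. Col4a1 read -7.16 (dim) and -9.89 (dim) in E10.5 females, -5.88 (dim) and -9.51 (dim) in E10.5 males, -7.90 (dim) and -7.60 in E13.5 females, -7.93 (dim) and -5.43 (dim) in E13.5 males, -8.18 (dim) and -7.18 (dim) in E17.5 females and -5.16 and -5.09 in E17.5 males. Oogonia had Col4a1 values of -4.82 and -5.05, spermatogonia -6.45 (dim) and -6.17, GS -1.40 and -3.65 and testis -7.00 and -7.20. For Col4a1 the cultures gave -8.17 and -7.44 in female EG, -5.82 and -5.74 in male EG, -5.80 and -6.52 in ES no5 and -8.30 and -8.33 (dim) in ES TMA5. Col4a1 was dim on 9 of the 10 arrays of E10.5, E13.5 and female E17.5 PGCs. Col4a2 read -7.03 (dim) and -6.87 in E10.5 females, -5.81 (dim) and -6.44 in E10.5 males, -3.91 and -4.36 in E13.5 females, -4.53 and -5.85 (dim) in E13.5 males, -5.05 and -4.48 in E17.5 females and -2.42 and -2.65 in E17.5 males. Oogonia had Col4a2 values of -5.79 and -6.02, and spermatogonia -3.73 and -3.43. For Col4a2 the cultures gave -5.32 and -5.10 in female EG, -3.53 and -3.70 in male EG, -4.41 and -4.55 in ES no5 and -6.31 and -6.27 in ES TMA5. Col4a2 was lowest in E10.5 PGCs, ES TMA5 and oogonia. GS had Col4a2 at 0.40 and -2.27 and testis at -4.31 and -4.45. Both chains were highest in GS, on both arrays. Their group means correlated at 0.78 over 14 groups, against 0.92 for Col4a2 with Col7a1; in oogonia Col4a1 was second only to GS whereas 10 groups were higher than oogonia for Col4a2.

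Col18a1 encodes a basement membrane collagen whose released end is the angiogenesis inhibitor endostatin. Col18a1 read 1.35 and 0.90 in E10.5 females, 1.23 and 1.105 in E10.5 males, 1.16 and 1.01 in E13.5 females, 1.05 and -0.35 in E13.5 males, -2.27 and -1.31 in E17.5 females and 1.25 and 0.15 in E17.5 males. Oogonia had Col18a1 values of -2.11 and -2.26, spermatogonia -0.73 and -0.42, GS 2.01 and 0.87 and testis -2.68 and -2.47. For Col18a1 the cultures gave 1.09 and 1.32 in female EG, 0.69 and 0.68 in male EG, 0.81 and 1.04 in ES no5 and 0.81 and 0.77 in ES TMA5. Col18a1 stood between 0.68 and 1.35 on the 8 EG and ES arrays and the 6 PGC arrays of E10.5 and female E13.5. It lay at or below -1.31 on every array of female E17.5 PGCs, oogonia and testis, without overlap with those 14 arrays. The 3 other Col18a1 probes, well above background on all 28 arrays, followed this probe with correlations of 0.99, 0.97 and 0.92 over the arrays.

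Col7a1 encodes the anchoring fibrils that tie a basement membrane to stroma. Col7a1 read -7.14 (dim) and -6.69 in E10.5 females, -5.88 (dim) and -6.24 in E10.5 males, -5.27 and -5.29 in E13.5 females, -6.27 and -5.39 (dim) in E13.5 males, -4.06 and -4.21 in E17.5 females and -2.18 and -2.13 in E17.5 males. Oogonia had Col7a1 values of -4.81 and -5.57, spermatogonia -2.83 and -2.09, GS -0.71 and -2.45 and testis -4.54 and -4.44. For Col7a1 the cultures gave -4.33 and -4.61 in female EG, -3.67 and -3.50 in male EG, -4.10 and -4.25 in ES no5 and -5.56 and -5.69 in ES TMA5. It lay at or above -2.83 only in male E17.5 PGCs, spermatogonia and GS. Col15a1, a basement membrane collagen of muscle and vessels, read -0.99 and -0.79 in testis, -5.42 and -5.39 in GS and -8.98 and -9.09 in ES no5. It was dim on 21 of the other 22 arrays. Col4a3 and Col4a6, chains of specialised basement membranes, and Col9a1 were well above background on both arrays of testis only, with -6.13 and -6.23, -8.83 and -8.72, and -4.37 and -4.50. Col4a5 was so in GS (-6.10 and -9.61) and testis (-8.53 and -9.11).

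Other classes. Col6a1 encodes a chain of type VI collagen, which forms beaded filaments around many cells. Col6a1 read -2.93 and -3.20 in E10.5 females, -2.33 and -2.77 in E10.5 males, -2.53 and -3.00 in E13.5 females, -2.41 and -2.64 in E13.5 males, -2.003 and -1.54 in E17.5 females and -0.90 and -1.01 in E17.5 males. Oogonia had Col6a1 values of -2.15 and -3.03, spermatogonia -0.86 and -0.82, GS 1.25 and -1.35 and testis -3.54 and -4.20. For Col6a1 the cultures gave -4.72 and -9.20 in female EG, -4.35 and -3.93 in male EG, -1.96 and -2.38 in ES no5 and -4.83 and -5.10 in ES TMA5. It was higher in all 12 PGC arrays than in any of the 6 arrays of EG and ES TMA5. Col6a4 encodes another type VI chain. Col6a4 read -6.71 (dim) and -8.51 (dim) in E10.5 females, -5.71 (dim) and -7.77 (dim) in E10.5 males, -8.44 (dim) and -7.87 (dim) in E13.5 females, -7.76 (dim) and -7.13 (dim) in E13.5 males, -4.09 and -3.97 in E17.5 females and -1.34 and -1.40 in E17.5 males. Oogonia had Col6a4 values of -3.20 and -4.22, spermatogonia -0.77 and -0.67, GS -6.45 and -5.42 and testis -0.31 and -0.57. For Col6a4 the cultures gave -5.06 and -4.91 in female EG, -6.67 and -6.34 in male EG, -6.81 and -6.92 in ES no5 and -4.72 and -4.68 in ES TMA5. Col6a4 was dim until E13.5 and was high in male E17.5 PGCs, spermatogonia and testis, all at or above -1.40. Its other 2 probes moved little, between -6.94 and -4.41 over 28 arrays, so this pattern was seen by 1 of 3 probes.

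Col9a2 and Col9a3 encode chains of type IX collagen, which coats cartilage fibrils. Col9a2 read -4.73 (dim) and -4.46 in E10.5 females, -5.73 (dim) and -4.41 in E10.5 males, -4.57 and -4.46 in E13.5 females, -3.21 and -5.41 (dim) in E13.5 males, -5.84 (dim) and -4.71 in E17.5 females and -2.94 and -3.14 in E17.5 males. Oogonia had Col9a2 values of -5.76 and -6.84, spermatogonia -4.73 and -4.27, GS -7.24 and -6.69 and testis -7.17 and -7.05. For Col9a2 the cultures gave -5.30 and -3.30 in female EG, -4.81 and -4.16 in male EG, -4.81 and -4.12 in ES no5 and -5.69 and -5.70 in ES TMA5. Col9a2 was lower in GS and testis than in spermatogonia, without overlap. Col9a3 read -7.07 (dim) and -9.43 (dim) in E10.5 females, -5.57 (dim) and -8.34 (dim) in E10.5 males, -6.87 (dim) and -7.01 in E13.5 females, -3.96 and -4.18 in E13.5 males, -8.07 (dim) and -9.14 (dim) in E17.5 females and -4.56 and -4.72 in E17.5 males. Oogonia had Col9a3 values of -6.71 and -7.39, spermatogonia -8.27 (dim) and -7.41 (dim), GS -8.03 and -8.11 and testis -4.64 and -4.62. For Col9a3 the cultures gave -7.25 and -7.60 in female EG, -9.41 (dim) and -9.80 (dim) in male EG, -9.15 and -8.55 in ES no5 and -6.96 and -8.02 (dim) in ES TMA5. Col9a3 lay at or above -4.72 only in male E13.5 and E17.5 PGCs and testis. Col16a1, a fibril-associated collagen, appeared late in PGCs. Col16a1 read -7.09 (dim) and -8.68 (dim) in E10.5 females, -5.85 (dim) and -8.10 (dim) in E10.5 males, -7.76 (dim) and -7.18 in E13.5 females, -7.24 (dim) and -6.83 (dim) in E13.5 males, -4.43 and -4.11 in E17.5 females and -3.75 and -3.39 in E17.5 males. Oogonia had Col16a1 values of -5.75 and -6.26, spermatogonia -5.65 and -4.73, GS -1.96 and -4.73 and testis -2.14 and -2.14. For Col16a1 the cultures gave -7.15 and -9.71 (dim) in female EG, -7.51 and -6.94 in male EG, -4.60 and -5.79 in ES no5 and -7.22 and -7.89 (dim) in ES TMA5. The first GS array and both testis arrays were its highest. Col13a1, a collagen that spans the cell membrane, was high in spermatogonia. Col13a1 read -5.98 (dim) and -5.21 in E10.5 females, -4.32 (dim) and -5.48 in E10.5 males, -5.83 and -5.19 in E13.5 females, -4.01 and -4.63 in E13.5 males, -7.57 (dim) and -6.86 (dim) in E17.5 females and -3.14 and -3.00 in E17.5 males. Oogonia had Col13a1 values of -5.99 and -7.14, spermatogonia -1.88 and -1.500, GS -6.50 and -1.97 and testis -6.73 and -6.96. For Col13a1 the cultures gave -5.46 and -6.32 in female EG, -8.11 and -6.78 in male EG, -8.32 and -7.77 in ES no5 and -6.18 and -7.11 in ES TMA5. The GS arrays of Col13a1 differed by 4.53 with the second the higher, the opposite of Col1a1 and Col3a1. Col8a1 encodes a chain of a collagen that forms short-chain networks. Oogonia had Col8a1 values of -5.51 and -6.42, spermatogonia -7.65 (dim) and -8.01 (dim), GS 1.13 and -2.62 and testis -6.23 and -6.57. Its levels were -5.31 and -9.47 (dim) in female EG, -4.22 and -3.13 in male EG, -2.39 and -3.09 in ES no5 and -5.95 and -6.42 in ES TMA5. The first GS array was its highest, and the testis arrays lay near those of ES TMA5. In PGCs only 1 of 12 arrays was well above background, the second of E17.5 females.

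Changes were tested with limma in a single fit of the 14 group means, and a gene is called where its Benjamini-Hochberg adjusted p over all genes tested is under 0.05. From E10.5 to E13.5, with the sexes averaged, 3 of 13 collagen genes tested were called, all higher, whereas 35.0% of all 11647 genes tested were called and 23.3% were called higher. The direction over all genes followed the scaling: 2711 were called higher and 1364 lower, but 1371 and 2253 with the percentile taken over all probes, where the collagens gave 2 higher and 0 lower. Here and in the comparisons that follow, the share of collagens called was close to or below the share over all genes, except between GS and testis, where it was higher with no test of that difference. Col4a2 rose by 1.87 ± 0.42 (SE, adjusted p = 0.00254). Col9a3 rose at least 1.24-fold, with adjusted p = 0.00662, measured means -5.51 and -7.60. Col7a1 rose by 0.93 ± 0.32 (SE, adjusted p = 0.0307). Within the 2 scan days, which hold replicate 1 and replicate 2 of the PGCs, the Col4a2 change was 2.20 and 1.55 and that of Col9a3 0.90 and 3.29. On the first day Col4a2 was dim in E10.5 females and males. The lowest signal well above background on those arrays was -4.89 and -3.58, so 2.20 is a difference against dim levels. Col9a3 was dim on every E10.5 array, so both of its day values are differences against dim levels. Its E13.5 female arrays read within the range of the E10.5 arrays, and only the E13.5 male arrays lay above it. With the normexp background correction the Col4a2 change was 0.00026 and was not called. The 4 arrays of each stage overlapped for all 3 genes. No fibrillar gene of 6 tested was called; the median over them was -0.16, against 0.23 over all genes. Col7a1 lost its call without any of 5 of the 8 arrays. Among basement membrane partners 4 of 7 rose and 0 fell, with Lama1, a laminin chain, up by 2.90 ± 0.47 (SE, adjusted p = 0.0002) and Agrn, a heparan sulfate proteoglycan, by 0.97 ± 0.17 (SE, adjusted p = 0.000351). Lama1 was dim on both E10.5 female arrays and on 1 of the 2 E10.5 male arrays, so its value is a difference against mostly dim levels. Of the collagen assembly genes, the enzymes and chaperones of collagen folding and crosslinking, 3 of 15 rose and 1 fell, with P4ha2, a prolyl hydroxylase subunit, up by 1.25 ± 0.37 (SE, adjusted p = 0.0143).

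From E13.5 to E17.5 more collagens were called in males than in females. In males 9 of 22 collagen genes tested rose and 0 fell, while 44.1% of 12972 genes were called and 30.0% were called higher; in females 3 of 15 rose and 2 fell, where 35.3% of 11990 genes were called. In males Col6a4 rose at least 22.8-fold on its brightest probe (adjusted p = 2.13e-06, measured means -1.37 and -7.44), which was dim on both E13.5 arrays. Col7a1 rose by 3.67 ± 0.45 (SE, adjusted p = 1.34e-05) and Col5a3 by 2.72 ± 0.56 (SE, adjusted p = 0.0012). Col4a2 rose by 2.65 ± 0.59 (SE, adjusted p = 0.00197) and Col1a1 by 2.83 ± 1.06 (SE, adjusted p = 0.0398). On a second Col1a1 probe, well above background on both male arrays of each stage, the stages overlapped. It read -6.05 and -4.50 at E13.5 and -4.83 and -4.25 at E17.5. Col16a1 rose at least 4.97-fold and Col24a1 at least 5.41-fold. Col5a1 and Col2a1 were the others. Over all genes 3894 were called higher and 1821 lower in males, and 2359 and 2959 with the percentile over all probes, where 5 collagens were higher and 0 lower. The male median over the 22 genes was 2.42, or 1.89 with dim genes at their bound, against 0.47 over all genes tested. All 22 were well above background on both E17.5 male arrays, whereas only 7 of 34 collagens were so at E13.5. The filter thus let genes in through the later stage and favoured rises, so the one-sided direction is not evidence by itself. The male count was 5 without the second E17.5 male array. The calls of Col1a1, Col24a1, Col5a1 and Col2a1 were each lost without at least 2 of the 4 arrays, including the second E17.5 male array. With the normexp background correction 2 were called.

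In females Col18a1 fell by 2.87 ± 0.46 (SE, adjusted p = 0.000194); the male change was 0.35 ± 0.46 (SE, adjusted p = 0.553) and was not called. Col5a3 fell at least 2.04-fold. Col6a4 rose at least 9.07-fold on its brightest probe (adjusted p = 7.93e-05, measured means -4.03 and -8.15), which was dim on both E13.5 arrays, Col24a1 at least 13.8-fold and Col16a1 by 3.21 ± 0.92 (SE, adjusted p = 0.0127). Col16a1 lost its call without the first E13.5 or the second E17.5 array, and Col24a1 without the second E13.5 array. Markers of other cells moved with stage, given first for males. The stromal list went from -1.94 and -1.88 at E13.5 (2 of 9 well above background on both arrays) to 0.80 and 0.93 at E17.5 (6 of 9), and the Sertoli list from 1.17 and 0.04 (6 of 9) to 3.23 and 2.15 (8 of 9). The myoid list went from -2.56 and -2.98 (1 of 5) to -0.57 and -0.44 (5 of 5), and the endothelial list from -5.88 and -3.82 (0 of 6) to -1.35 and -1.51 (3 of 6). The extraembryonic endoderm list went from -3.56 and -3.52 (0 of 7) to 1.56 and 1.48 (5 of 7), and the blood list from -0.28 and -1.95 (1 of 5) to 1.94 and 0.20 (3 of 5). In females the stromal list went from -2.56 and -2.65 (4 of 9) to -1.85 and -1.02 (4 of 9). The female blood list went from -1.19 and -5.50 (1 of 5) to 4.07 and 1.495 (2 of 5). The female Sertoli list went from -2.98 and -3.12 (3 of 9) to -2.70 and -1.78 (2 of 9). That of endothelium went from -4.94 and -5.70 to -4.86 and -3.70 (0 of 6 at each stage). The female myoid and extraembryonic endoderm lists overlapped between the stages. The part of all these lists in the result was not tested. All 14 called changes of both sexes had the same sign on each scan day. For Col18a1 in females the days gave -3.42 and -2.32, and for Col6a4 in males 6.42 and 5.72.

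The difference between the sexes in this change was tested as an interaction, which called 4 of 22 collagen genes, all more positive in males, against 29.3% of 13986 genes called and 17.9% called in that direction. They were Col5a3 with a fitted difference of 5.83 ± 0.80 (SE, adjusted p = 6.42e-05), Col4a2 with 3.29 ± 0.83 (SE, adjusted p = 0.00742), Col18a1 with 3.22 ± 0.65 (SE, adjusted p = 0.00161) and Col7a1 with 2.53 ± 0.63 (SE, adjusted p = 0.00688). The Col5a3 value rests on dim levels of female E17.5 PGCs, and with those at their bound the difference was 13.4-fold. That is not a lower limit, since the second E13.5 male array was dim too and entered at its measured value. In E13.5 males Col5a3, Col4a2 and Col7a1 were well above background on 1 of 2 arrays. Of the 4, 3 are basement membrane chains, out of 4 of that class tested. The 22 genes tested were all well above background on both E17.5 male arrays. Genes dim in the other groups thus entered through that group alone, which favours more positive changes in males. Over all genes 2502 were called more positive and 1597 more negative in males, and 1875 and 2149 with the percentile over all probes, where the collagens again gave 4 and 0. Each of the 4 kept its call when any single array of the 8 was left out. Col18a1 kept it under all 18 alternative settings, those left-out arrays included, with differences of 2.52 to 3.92. With normexp the differences of Col5a3, Col4a2 and Col7a1 were 1.10149, 1.31 and 1.05 and were not called (adjusted p = 0.375, 0.482 and 0.524). Col4a2 and Col7a1 were not called with quantile normalization either, nor Col7a1 with the deposited values. On the 2 scan days Col18a1 gave 3.62 and 2.82 and Col4a2 3.25 and 3.33. Collagen assembly genes had 5 of 17 called more positive in males and 0 the other way. P4ha2 differed by 6.07 ± 0.73 (SE, adjusted p = 2.17e-05): it rose in males by 3.55 ± 0.52 (SE, adjusted p = 6.61e-05) and fell in females, changing by -2.51 ± 0.52 (SE, adjusted p = 0.00143). Plod1, a lysyl hydroxylase, differed by 3.17 ± 0.40 (SE, adjusted p = 3.22e-05). Basement membrane partners had 4 of 12 called more positive in males, with Lama1 at 4.95 ± 0.93 (SE, adjusted p = 0.000951) and Fbln1 at 3.55 ± 0.90 (SE, adjusted p = 0.00731).

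**Figure D4:**
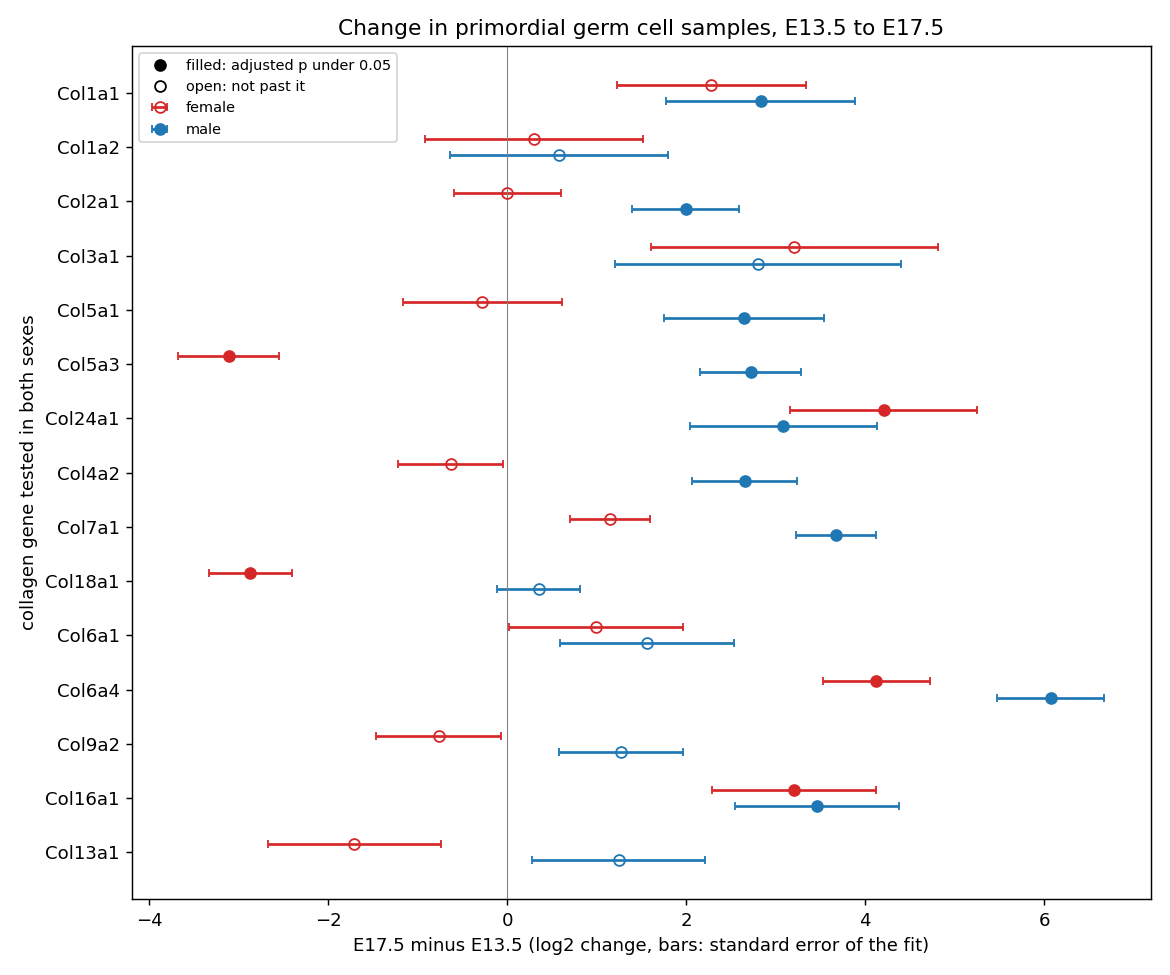
Change from E13.5 to E17.5 in female (red) and male (blue) PGCs of 15 collagen genes tested in both sexes (horizontal axis, log2, with the standard error of the fit as bars); filled points passed an adjusted p of 0.05. Col18a1 and Col5a3 fell in females; of these 15 genes Col6a4, Col24a1 and Col16a1 rose in both sexes. Values against dim levels, among them both Col6a4 values and the female Col5a3 value, are measured differences, not bounds.

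At E13.5, Col9a3 was the only collagen of 13 tested that was called between the sexes, higher in males by 2.87 ± 0.76 (SE, adjusted p = 0.0187), with 14.3% of 11555 genes called. It lost its call without either female array or without the second male array, and the count was 3 without the first male array. At E17.5, 11 of 22 collagen genes were called, all higher in males, where 51.7% of 13388 genes were called and 30.7% were called higher in males. Each of the 22 was well above background on both male arrays, against 11 of 34 collagens in females. No collagen was tested through females alone, so the filter favoured this direction. Col5a3 was at least 11.3-fold higher (adjusted p = 1.27e-06, measured means -2.94 and -8.52) and Col13a1 at least 9.78-fold (adjusted p = 0.00216, measured means -3.07 and -7.22). Col14a1, a fibril-associated collagen, was at least 4.80-fold higher and Col9a3 at least 3.48-fold. Col2a1 was higher by 2.83 ± 0.60 (SE, adjusted p = 0.001), Col27a1 at least 1.59-fold, and Col18a1 by 2.49 ± 0.46 (SE, adjusted p = 0.000353). The others were Col6a4, Col9a2, Col4a2 and Col7a1, and the groups did not overlap for any of the 11. Over all genes 4116 were called higher and 2805 lower, and 3211 and 3571 with the percentile over all probes, where 10 collagens were higher and 0 lower. Col1a1 and Col3a1 were not called, with 1.22 ± 1.06 (SE, adjusted p = 0.346) and 0.23 ± 1.60 (SE, adjusted p = 0.915). Without single arrays Col27a1 was lost each time, Col9a2 without the first array of either sex and Col14a1 without the second female array. Among basement membrane partners 8 of 12 were higher in males and 1 lower, with Lamb3, a laminin chain, at least 8.38-fold higher; among assembly genes 7 of 17 were higher and 0 lower, with P4ha2 at 4.17 ± 0.52 (SE, adjusted p = 9.23e-06).

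Markers of Sertoli cells, the supporting cells of the testis, moved with this difference. In male E17.5 PGCs 8 of 9 were well above background on both arrays and their summed level was 3.23 and 2.15; in females 2 of 9 were, at -2.70 and -1.78. Sox9, which defines Sertoli cells, read -0.91 and -1.42 in males and -7.17 and -7.01 in females, both dim. The stromal list was 0.80 and 0.93 in males with 6 of 9 well above background, and -1.85 and -1.02 in females with 4 of 9. The myoid list was -0.57 and -0.44 in males (5 of 5) and -2.61 and -2.78 in females (3 of 5), and the endothelial list -1.35 and -1.51 (3 of 6) and -4.86 and -3.70 (0 of 6). The pregranulosa list was -2.05 and -1.63 in males (3 of 6) and -3.22 and -2.48 in females (2 of 6). The list for extraembryonic endoderm was 1.56 and 1.48 in males (5 of 7) and -4.02 and -3.00 in females (1 of 7). The blood list was 4.07 and 1.495 in females (2 of 5) and overlapped with 1.94 and 0.20 in males (3 of 5). The part of these cells in the collagen differences was not tested. At E13.5 the Sertoli list was 1.17 and 0.04 in males and -2.98 and -3.12 in females, when Col9a3 was the collagen called.

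Oogonia had 0 of 18 collagen genes called against female E17.5 PGCs in limma, with 3 at an unadjusted p under 0.05, while 19.3% of 14009 genes were called. The largest fitted changes were in Col4a1, at least 2.84-fold higher in oogonia (adjusted p = 0.0774, measured means -4.93 and -7.68), and Col16a1 (-1.74 ± 0.92 SE, adjusted p = 0.198). Spermatogonia against male E17.5 PGCs gave 1 of 23, with 15.6% of 13747 genes called: Col9a3 was at least 4.46-fold lower (adjusted p = 0.011, measured means -7.84 and -4.64). That call was lost without either E17.5 male array or the first of spermatogonia. Of the other lists, 3 of 12 basement membrane partners were called, all lower in spermatogonia, with Lama1 at -2.71 ± 0.66 (SE, adjusted p = 0.0127), and 0 of 17 assembly genes. All 8 Sertoli markers tested were lower in spermatogonia, whose list summed to -0.18 and -0.21. Oogonia and spermatogonia each lay on a slide of their own, so slide and group cannot be told apart.

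EG samples against E13.5 PGCs, sexes averaged, had 8 of 21 collagen genes called, 4 higher and 4 lower, with 42.1% of 18188 genes called. Col1a1 was higher by 2.16 ± 0.75 (SE, adjusted p = 0.0284), Col5a2 at least 2.72-fold, Col6a4 at least 1.74-fold on its brightest probe (adjusted p = 0.000939, measured means -5.75 and -7.80) and Col7a1 by 1.53 ± 0.32 (SE, adjusted p = 0.00095). Col9a3 was lower, with -3.01 ± 0.54 (SE, adjusted p = 0.000266), as was Col6a1 with -2.91 ± 0.69 (SE, adjusted p = 0.00264). Col1a2 (-2.43 ± 0.86 SE, adjusted p = 0.0324) and Col13a1 (-1.75 ± 0.68 SE, adjusted p = 0.0495) were lower too. The 2 type I chains thus moved in opposite directions on their brightest probes. With all probes of a gene averaged, the Col1a1 change was -0.19, and Col1a2 kept its direction but not its call. The brightest Col1a2 probe was dim on the second female EG array. The second Col1a2 probe was dim on all E13.5 arrays. In EG it read -3.84 and -2.90 in males and -8.10 and -11.58 (dim) in females, so it did not show the fall. For Col1a1, Col5a2, Col1a2 and Col13a1 the arrays of EG and E13.5 overlapped. The count was 5 without the first female EG array or without the second E13.5 female array. Col1a1, Col5a2, Col1a2 and Col13a1 each lost their call without at least 5 of the 8 arrays, whereas Col6a1, Col6a4, Col7a1 and Col9a3 kept theirs without any of them. Col5a2 and the brightest Col6a4 probe were well above background in EG and dim in E13.5 PGCs, and with normexp their changes were -0.60 and -1.16. The stromal list ran from -2.82 to 0.29 on the EG arrays and from -2.65 to -1.88 on the E13.5 arrays. Nid1, the basement membrane linker nidogen, was higher by 4.06 ± 0.50 (SE, adjusted p = 7.44e-06), and Lamc1, a laminin chain, by 2.65 ± 0.32 (SE, adjusted p = 5.84e-06); of the lists 2 of 12 partners rose, and 3 of 19 assembly genes rose and 1 fell. This comparison shares its E13.5 arrays with the stage comparisons above.

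Against ES samples, EG samples had 0 of 24 collagen genes called in limma, with 7 at an unadjusted p under 0.05, and 6.34% of 19094 genes were called. Col3a1 gave -3.47 ± 1.13 (SE, adjusted p = 0.082), the largest change, and Col18a1 0.09 ± 0.33 (SE, adjusted p = 0.912). The count was 3 without the first female EG array. Lama1 was higher in EG by 2.40 ± 0.47 (SE, adjusted p = 0.00711), as were P4ha2 and Plod1 of the assembly list. EG, ES and E13.5 PGCs lay on different slides, so slide and group cannot be told apart here.

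Within the cultures, the sexes of EG and the 2 ES lines were compared after their values had been seen. Male against female EG had 0 of 21 collagen genes called in limma, with 9 at an unadjusted p under 0.05, and 0.992% of 18037 genes were called. The median was 1.21, and the largest change was in Col3a1 (4.57 ± 1.60 SE, adjusted p = 0.241), where the second female array was dim. The count was 3 without the first female EG array. ES TMA5 against no5 had 0 of 23 called in limma, with 13 at an unadjusted p under 0.05 and 3.94% of 17848 genes called. Its median was -2.03, against -0.08 over all genes tested, and 20 of 23 genes had lower values in TMA5. All 23 were well above background on both no5 arrays, against 15 of 34 collagens in TMA5. The filter thus favoured lower values in TMA5, and the median and this count are not evidence of a line difference by themselves. Fibrillar examples were Col3a1 (-3.57 ± 1.60 SE, adjusted p = 0.264) and Col5a1 (-2.57 ± 0.89 SE, adjusted p = 0.127), while Col18a1 gave -0.13 ± 0.46 (SE, adjusted p = 0.942). The stromal list was 1.47 and 0.86 in no5, with 9 of 9 well above background, and -0.81 and -0.80 in TMA5, with 5 of 9; its part in the difference was not tested. The lines also differ in strain, and strain and sex cannot be told apart. For the fibrillar chains the 2 arrays of each line lay within 1.04 units of each other among those well above background on both.

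GS samples against spermatogonia had 8 of 29 collagen genes called, 5 higher and 3 lower, with 25.4% of 21227 genes called. Col8a1 was at least 66.4-fold higher (adjusted p = 0.00182, measured means -0.74 and -7.83). Col4a1 was higher by 3.79 ± 1.05 (SE, adjusted p = 0.0144), Col4a2 by 2.65 ± 0.59 (SE, adjusted p = 0.00365) and Col18a1 by 2.02 ± 0.46 (SE, adjusted p = 0.00442). Col15a1 was at least 2.62-fold higher. Col6a4 was lower, with -5.21 ± 0.60 (SE, adjusted p = 1.88e-05), and Col24a1 likewise with -4.12 ± 1.04 (SE, adjusted p = 0.00855) and Col9a2 with -2.47 ± 0.70 (SE, adjusted p = 0.0158). All groups were without overlap. Of 6 basement membrane chains tested 4 rose, and of 11 fibrillar chains 0 rose and 1 fell. Col1a1, with 2.30 ± 1.06 (SE, adjusted p = 0.127), and Col3a1, with 1.60 ± 1.60 (SE, adjusted p = 0.525), were not called, and their GS arrays differed by 2.20 and 4.66. The count was 3 without the first GS array and 5 without the second of spermatogonia. Without the first GS array Col4a1, Col4a2, Col18a1, Col9a2 and Col15a1 lost their call; Col6a4 and Col8a1 kept theirs without any of the 4 arrays. Col15a1 was lost without any of the 4, and Col24a1 without the first of spermatogonia or the second GS array. Col4a1 and Col9a2 were lost without either array of spermatogonia too.

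Part of the genes that process collagen rose in GS. Of 21 assembly genes tested 10 were higher and 1 lower than in spermatogonia, with Serpinh1, the collagen-specific chaperone, at least 16.0-fold higher and the crosslinking oxidase Lox higher by 4.06 ± 1.39 (SE, adjusted p = 0.0419). Of 13 basement membrane partners 5 were higher and 0 lower, with Sparc, a collagen-binding matrix protein, higher by 3.05 ± 0.65 (SE, adjusted p = 0.00264). Serpinh1 read -1.60 and -3.99 on the 2 GS arrays and was dim on both arrays of spermatogonia. The stromal list was 4.44 and 1.60 in GS, with 9 of 9 well above background, and 1.33 and 1.06 in spermatogonia, with 6 of 9, and the germ cell list was 2.13 and 3.40 in GS. The first GS array thus had the higher stromal and the lower germ cell signal. The myoid list was also higher in GS, at -0.08 and -0.19 against -1.504 and -1.33. Lower in GS were the Sertoli list (-1.72 and -2.55 against -0.18 and -0.21) and the endothelial list (-5.26 and -5.66 against -1.07 and -1.19). So were the extraembryonic endoderm list (-0.91 and 0.47 against 1.99 and 1.92) and the blood list (-7.01 and -7.39 against 0.54 and 0.33). The Leydig list was -6.55 and -6.48 in GS (3 of 3) and -5.75 and -5.18 in spermatogonia (0 of 3). No member was thus well above background on both arrays of spermatogonia, and no direction is read from this list. The pregranulosa list overlapped. The part of all these lists in the values was not tested. GS and spermatogonia lay on different slides, so slide and group cannot be told apart.

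Testis against spermatogonia had 12 of 33 collagen genes called, 4 higher and 8 lower, with 44.7% of 22968 genes called. Col15a1 was at least 59.9-fold higher in testis (adjusted p = 2.63e-05, measured means -0.89 and -8.60), Col9a3 at least 4.48-fold and Col16a1 by 3.05 ± 0.92 (SE, adjusted p = 0.012). Col9a1 was the last of the 4, with 2.28 ± 0.79 (SE, adjusted p = 0.027). Col13a1 was lower, with -5.15 ± 0.97 (SE, adjusted p = 0.000344), Col24a1 with -5.02 ± 1.04 (SE, adjusted p = 0.000843) and Col5a3 with -4.93 ± 0.56 (SE, adjusted p = 2.72e-06). Col11a1 (-3.75 ± 1.42 SE, adjusted p = 0.0409), Col6a1 (-3.03 ± 0.97 SE, adjusted p = 0.0175) and Col9a2 (-2.61 ± 0.70 SE, adjusted p = 0.00557) were also lower. Col18a1 and Col7a1 fell as well, by 1.99 ± 0.46 (SE, adjusted p = 0.002) and 2.03 ± 0.45 (SE, adjusted p = 0.00136). Leaving out single arrays ended the calls of Col9a1 and Col11a1 each time, of Col16a1 without the first spermatogonia array or either testis array, and of Col6a1 without either spermatogonia array or the second testis array. Of 18 assembly genes 2 were higher and 10 lower, with Lox at -4.30 ± 1.39 (SE, adjusted p = 0.0186), and of 13 partners 2 were higher and 5 lower, with Fbln1, a matrix glycoprotein, at -3.70 ± 0.63 (SE, adjusted p = 0.00015). Markers of somatic testis cells moved with it: the Sertoli list was 3.44 and 3.41 in testis (9 of 9) and -0.18 and -0.21 in spermatogonia (7 of 9), and the Leydig list 0.71 and 0.21 (3 of 3) and -5.75 and -5.18 (0 of 3). The myoid list was -0.74 and -0.95 (5 of 5) and -1.504 and -1.33 (3 of 5). Other lists were lower in testis. The stromal list was 0.02 and -0.45 in testis (6 of 9) and 1.33 and 1.06 in spermatogonia (6 of 9), and the endothelial list -3.01 and -3.43 (6 of 6) and -1.07 and -1.19 (5 of 6). The extraembryonic endoderm list was -1.63 and -1.78 in testis (6 of 7) and 1.99 and 1.92 in spermatogonia (4 of 7), the pregranulosa list -6.17 and -6.48 (1 of 6) and -0.85 and -1.09 (3 of 6), and the blood list -0.85 and -1.02 (4 of 5) and 0.54 and 0.33 (3 of 5). Their part in the result was not tested.

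GS and testis shared a slide, and 19 of 33 collagen genes were called between them, 13 higher and 6 lower in GS, with 46.7% of 24179 genes called. Col8a1 was higher in GS by 5.66 ± 1.42 (SE, adjusted p = 0.0037), Col5a3 by 5.41 ± 0.56 (SE, adjusted p = 9.65e-07) and Col5a2 by 5.38 ± 1.25 (SE, adjusted p = 0.00205). Col4a1 was higher by 4.58 ± 1.05 (SE, adjusted p = 0.00187), Col1a1 by 4.14 ± 1.06 (SE, adjusted p = 0.00408) and Col1a2 by 4.11 ± 1.22 (SE, adjusted p = 0.0112). All 6 lower genes are named: Col9a1, at least 56.8-fold lower, Col4a3, at least 17.0-fold lower, Col6a4 with -5.49 ± 0.60 (SE, adjusted p = 1.54e-06), Col15a1 with -4.51 ± 1.102 (SE, adjusted p = 0.00297), Col9a3 with -3.44 ± 0.76 (SE, adjusted p = 0.00135) and Col2a1 with -2.42 ± 0.60 (SE, adjusted p = 0.00326). Among fibrillar chains 6 of 11 were higher and 1 lower, and among basement membrane chains 4 of 8 were higher and 2 lower. Without the first GS array Col1a1, Col1a2, Col5a1, Col5a2, Col6a1, Col8a1 and Col11a1 lost their call, and without the second GS array Col13a1 did. Without the first testis array Col5a1, Col11a1 and Col13a1 did, and without the second these 3 with Col1a1 and Col1a2. Col4a1, Col4a2, Col18a1 and Col7a1, the 4 basement membrane chains that were higher, kept theirs without any of the 4 arrays. Assembly genes ran the same way, with 15 of 21 higher and 1 lower in GS. The stromal list was 4.44 and 1.60 in GS (9 of 9) against 0.02 and -0.45 in testis (6 of 9), and the myoid list -0.08 and -0.19 (5 of 5) against -0.74 and -0.95 (5 of 5). The extraembryonic endoderm list was -0.91 and 0.47 in GS (5 of 7) and the pregranulosa list 0.65 and -2.45 (3 of 6), both above testis. The Sertoli list was lower in GS, at -1.72 and -2.55 (7 of 9) against 3.44 and 3.41 (9 of 9), and so was the Leydig list, at -6.55 and -6.48 (3 of 3) against 0.71 and 0.21 (3 of 3). The endothelial and blood lists were lower in GS too, at -5.26 and -5.66 (4 of 6) and -7.01 and -7.39 (3 of 5). Their part in the result was not tested. The comparison shares its arrays with those of GS and testis against spermatogonia.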

How the data were processed

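RNA of 28 samples was measured on single-colour Agilent arrays and scanned with Agilent Feature Extraction 10.5.1.1, per the file headers. The deposited intensity values are processed signals, background-subtracted by that program. Control spots (1417) and spots flagged as non-uniform (514 of 43803 probes) were left out, and no spot was saturated. Probes were named through their RefSeq accession, which gave 16760 of them a symbol. Log2 intensities were scaled by the 75th percentile of each array over 7227 probes well above background on all arrays, and the brightest probe stood for a gene. The deposited log2 table equals the log2 processed signal minus the array median within 0.002515, and served as an alternative.

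Group means were fitted with limma 3.58.1 (R 4.3.3, 14 residual degrees of freedom); a gene was tested if both arrays of 1 or more of the compared groups showed it clearly above background, with Benjamini-Hochberg adjustment over all genes tested. The code was tested on simulated data. A fold against a dim group is a bound: the brighter group's mean over the lowest signal well above background on the dim arrays, or the dim probe's own where higher. Normexp with an offset of 50, planned on mean signals, was run on median signals. Replicate 1 and replicate 2 of the PGC groups lay on different scan days, and same-numbered PGC arrays deviated together (correlations of 0.29 to 0.80 over 15 pairs of groups and 5412 genes), which was not so over all 91 pairs (-0.18 to 0.80). Precision is limited by the 2 arrays per group. Values of every array are given for 8 fibrillar and basement membrane chains chosen by name and for other collagens with both arrays above background in 7 groups or more. Up to 6 called collagens per direction and up to 4 called partner genes are named per comparison. The members and lists were chosen with earlier results of these data known, and 2 comparisons (EG by sex, ES by line) were added after values were seen.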

Additional observations from a re-analysis of the deposited data

Results flagged for a closer look

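The change from E13.5 to E17.5 differed between male and female PGCs for 4 collagen genes, by a test of the difference itself (the sex by stage interaction, limma with Benjamini-Hochberg adjustment). The male change exceeded the female change by 5.83 for Col5a3, 3.29 for Col4a2, 3.22 for Col18a1 and 2.53 for Col7a1, on the log2 scale. The Col5a3 value is a fitted difference against dim levels on both female E17.5 arrays, and with those at their bound it was 13.4-fold. That is not a lower limit, since the dim second E13.5 male array entered at its measured value. With normexp only Col18a1 of the 4 was called. Col4a2 and Col7a1 also lost their call with quantile normalization, and Col7a1 with the deposited values. Each group holds 2 arrays, and no group was large enough for a search for single outlying arrays.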

How the results depend on the processing

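Counts of called collagens moved with several settings. With normexp background correction they were 0 for E13.5 against E10.5, 2 for E17.5 against E13.5 in females and 2 in males, 0 and 3 between the sexes at E13.5 and E17.5, 1 for the interaction, 0 for spermatogonia, 13 for EG against E13.5, and 22 and 21 for testis and GS against spermatogonia. It moved the median over all genes by -1.33 to 0.19. It also reversed Col15a1 in GS against spermatogonia (-0.64), Col5a2 (-0.60) and Col6a4 (-1.16) in EG against E13.5, Col7a1 (-0.43) and Col9a3 (-0.28) from E10.5 to E13.5, and Col9a1 (-0.10) and Col9a3 (-0.17) in testis against spermatogonia. Averaging all probes reversed Col1a1 in EG against E13.5 (-0.19) and gave 2 calls in spermatogonia. With the deposited values the counts were 0 and 7 between the sexes at E13.5 and E17.5, 2 for EG against ES, 1 for the ES lines and 1 for oogonia. With the percentile over all probes they were 5 for males from E13.5 to E17.5 and 1 for oogonia, and with quantile normalization 2 for oogonia. Without a filter on dim probes they were 0 between the sexes at E13.5 and 22 for EG against E13.5. Slide as a random block gave 2 for EG against E13.5, 1 for EG by sex, 4 for the ES lines, 1 for GS and 4 for testis against spermatogonia, 7 for the interaction and 0 for spermatogonia; as a fixed block it gave 2 for EG by sex, 4 for the ES lines and 1 for E13.5 against E10.5. The cause of these changes was not tested. Over single-gene results, 723 kept direction and side of the threshold, 159 kept direction but not the call and 8 reversed.

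Leaving out each array in turn gave 2 to 3 calls for E13.5 against E10.5, 4 to 5 in females and 5 to 8 in males from E13.5 to E17.5, 0 to 3 and 9 to 10 between the sexes at E13.5 and E17.5, 4 to 5 for the interaction, 0 to 0 for oogonia and 0 to 1 for spermatogonia. For EG against E13.5 it gave 5 to 8, EG against ES 0 to 3, EG by sex 0 to 3, the ES lines 0 to 0, GS against spermatogonia 3 to 11, testis against spermatogonia 8 to 9 and GS against testis 14 to 19. The replicate block gave 9 calls in place of 8 for EG against E13.5 and the main count in the other 14 comparisons. Dim probes limit the comparisons of E10.5 and E13.5 PGCs, where 5 to 12 of 34 collagens were well above background on both arrays.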
